A study of Mus musculus with 23 samples.

Results

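The BMP and Id genes described here are Id1, Id2, Id3, Id4, Bmp4, Bmp2, Bmpr1a, Smad6, Msx1 and Msx2. They were chosen by name from the gene-level count matrix of mouse embryonic stem cells, and are 10 of its 53607 gene rows. All 10 members were among the 20372 genes that passed the filter on low counts, and each was followed in 8 groups of 23 RNA-seq libraries.

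The study crossed 2 media with deletion of RAS, the small GTPases that carry growth factor signals to the kinase ERK, and with knockout of ERF, an ETS-family repressor that ERK inactivates. 2iL is a medium with the MEK inhibitor PD0325901, the GSK3 inhibitor CHIR99021 and LIF, which holds embryonic stem cells in the naive state. FA is FGF2 at 12 ng/ml and Activin A at 20 ng/ml for 48 hours on fibronectin, which moves them toward epiblast-like cells. Total counts ran from 16221640 to 29874207 per library.

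Every line in the comparisons was H-Ras-/- and N-Ras-/-, carried another RAS gene flanked by lox sites, and carried Ubiq-CreERT2, a tamoxifen-inducible Cre recombinase under a ubiquitin promoter. In RAS-present lines no 4-hydroxytamoxifen was given. In RAS-deleted lines 4-hydroxytamoxifen was given for 6 days. ERF was wild type or labelled knockout. Each combination had 3 libraries in 2iL and 3 in FA, except ERF wild type with RAS present, which had 2 in FA. Every RAS-deleted library had received 4-hydroxytamoxifen and no RAS-present library had, so an effect of the drug and one of the deletion cannot be told apart. The labels state neither the number of clones behind the ERF knockout nor whether replicates were separate cultures, so the p-values below measure only the spread between these libraries.

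Counts for Erf were higher in 2iL with the ERF knockout label than in ERF wild type, and overlapped in FA. In RAS-present 2iL cells they were 96.1 to 129 CPM (counts per 1000000 counts of the library, with TMM-scaled library sizes) with the knockout label and 70.6 to 85.7 CPM in ERF wild type. With RAS deleted in 2iL they were 130 to 172 CPM and 83 to 90.2 CPM. In FA with RAS present the ranges were 50.7 to 64.8 CPM and 56.5 to 69.8 CPM. With RAS deleted in FA they were 49.3 to 67.9 CPM and 66.8 to 74.4 CPM. The directions given below for ERF therefore rest on the labels alone. Hras and Nras counts, from loci described as disrupted in every line, were present in all groups. Nras was uneven between 2iL libraries with the knockout label, from 7.74 to 43.6 CPM with RAS present and from 5.32 to 52.3 CPM with RAS deleted.

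BMPs are secreted ligands of the TGF-beta family. They join type I and type II receptor kinases, which phosphorylate SMAD1, SMAD5 and SMAD9, and these enter the nucleus with SMAD4 and switch on target genes. The Id genes are classical targets: their proteins lack a DNA-binding region and hold E proteins, the partners of many lineage-determining factors, away from DNA. In mouse embryonic stem cells BMP together with LIF is known to support self-renewal, in part through Id genes, and in the early embryo Bmp4 from extraembryonic tissue patterns the epiblast. No BMP is listed among the factors added to either medium.

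Promoters were read from RefSeq (build GRCm38.p6), as 250 bases before and 10 bases after the listed start. Of the 10 members 8 had an entry, and Id1 and Bmp2 had none. Each window was searched on both strands for GGCGCC, a GC-rich SMAD motif, for GTCTAGAC, a palindromic SMAD motif, and for CCGGAA, an ETS motif, none of which overlap one another. Id4, Bmp4 and Smad6 are shown because Id4 had the largest change with medium, Bmp4 the largest difference with the ERF label, and Smad6 holds the palindrome. Capitals mark the motif matches. Id4 lies on chr13:48260866-48261125, plus strand. Bmp4 lies on chr14:46390660-46390919, minus strand. Smad6 lies on chr9:64022050-64022309, minus strand. In each of these windows none of the 250 bases before the start lay in an annotated exon of its own gene.
Id4: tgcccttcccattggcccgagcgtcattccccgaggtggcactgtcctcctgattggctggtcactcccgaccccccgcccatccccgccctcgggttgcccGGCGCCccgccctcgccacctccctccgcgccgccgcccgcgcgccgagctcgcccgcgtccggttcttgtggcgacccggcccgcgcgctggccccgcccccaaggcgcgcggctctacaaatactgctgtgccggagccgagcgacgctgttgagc
Bmp4: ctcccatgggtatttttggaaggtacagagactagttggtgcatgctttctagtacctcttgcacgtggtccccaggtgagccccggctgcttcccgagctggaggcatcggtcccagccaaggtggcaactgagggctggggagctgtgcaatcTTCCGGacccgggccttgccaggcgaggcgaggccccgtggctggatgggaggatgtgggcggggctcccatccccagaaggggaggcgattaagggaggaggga
Smad6: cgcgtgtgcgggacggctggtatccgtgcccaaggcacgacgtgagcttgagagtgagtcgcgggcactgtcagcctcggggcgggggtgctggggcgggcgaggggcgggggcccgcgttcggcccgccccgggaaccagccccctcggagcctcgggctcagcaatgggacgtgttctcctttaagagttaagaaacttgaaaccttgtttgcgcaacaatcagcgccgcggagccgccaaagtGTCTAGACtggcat

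GGCGCC stood at -148 to -143 of Id4, and also at -231 to -226 of Id2 and -198 to -193 of Bmpr1a. It was found in 9.96% of 32851 promoter windows of the same length. CCGGAA, read on the minus strand as TTCCGG in the letters above, stood at -95 to -90 of Bmp4 and was found in 12.9% of windows. GTCTAGAC crossed the start of Smad6, from -4 to 4, and was found in 0.177% of windows. None of these letters was found in the windows of Id3, Msx1 and Msx2. Some windows lay within the gene's own annotated exons: of the 250 bases before the listed start, 250 did so for Id3 and for Msx2, 161 for Id2, 141 for Bmpr1a and 0 for Msx1. The windows of Id2, Id3, Bmpr1a and Msx2, and so the GGCGCC matches of Id2 and Bmpr1a, lay wholly between the annotated start and end of their gene.

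By length-scaled level (TPM, transcripts per 1000000, mean over 23 libraries), the receptor gene Bmpr1a was highest at 16.3 TPM. Id2 followed at 4.50 TPM, Smad6 at 3.16 TPM, Bmp4 at 3.02 TPM and Id3 at 2.21 TPM. Id1 stood at 1.37 TPM, Id4 at 0.884 TPM, Msx2 at 0.669 TPM, Msx1 at 0.419 TPM and Bmp2 at 0.183 TPM. Most members were therefore low: Id1 was counted 2 to 57 times per library, Bmp2 5 to 48 times and Msx1 6 to 54 times, against 814 to 2938 times for Bmpr1a. The effective length that the authors' table gives for Bmp4 ran from 292 to 1660 bases, a ratio of 5.69, so its TPM varied with the length estimate as well as with its counts.

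In bulk samples such as these, fewer cells of a type and less RNA per cell cannot be told apart. A gene is said to rise or fall below where edgeR's quasi-likelihood test gave a Benjamini-Hochberg adjusted p under 0.05 over all 20372 genes and the fitted change was at least 2-fold. Fold changes are on the log2 scale with their standard error (SE).

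**Figure D1:**
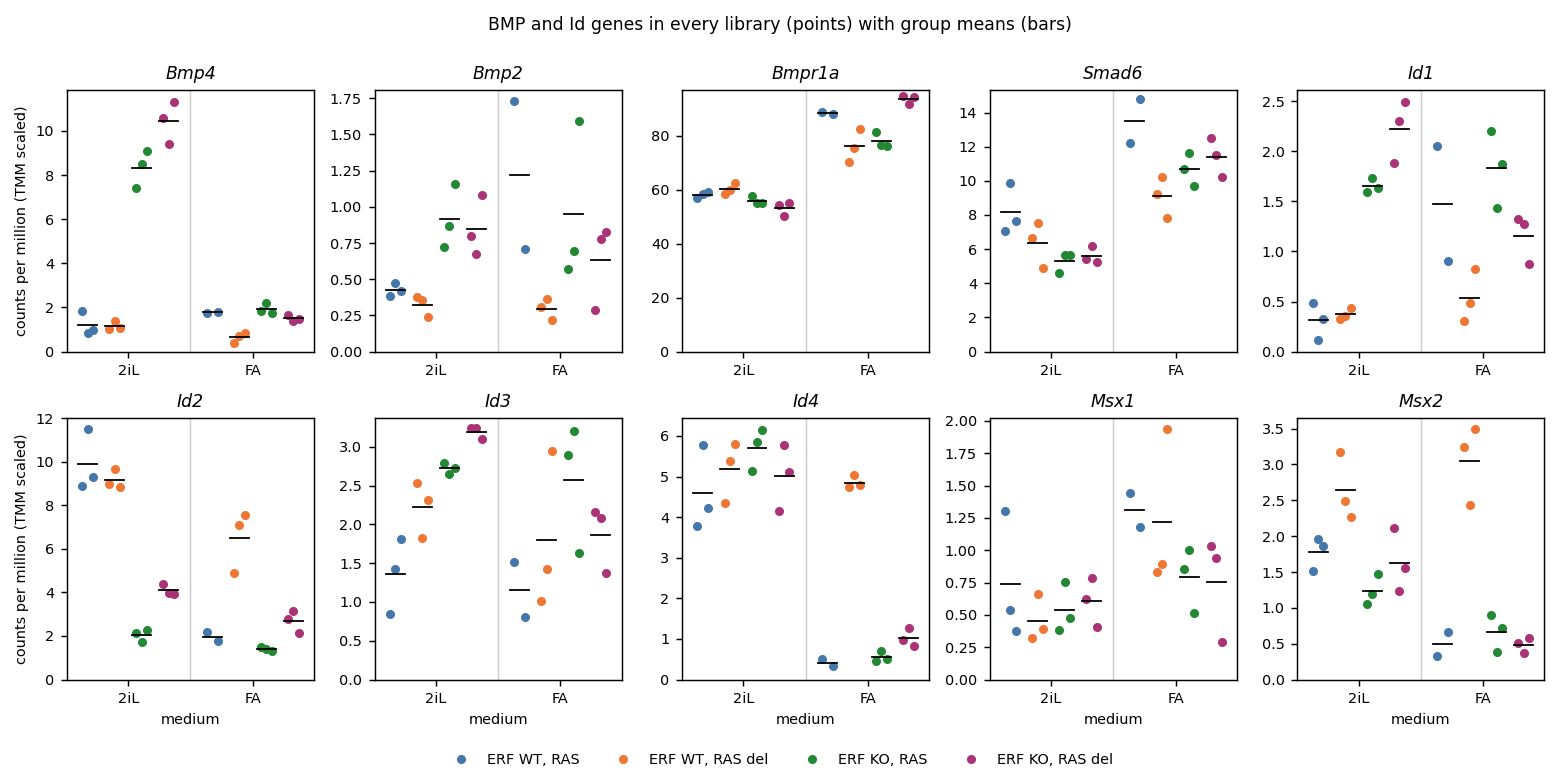
CPM of the 10 genes (vertical axes, linear from 0) in every library, grouped by medium and coloured by line, with group means as bars. Bmp4 is high in the 6 2iL libraries labelled ERF knockout, and Id4 and Msx2 stay high in FA where RAS was deleted and ERF was wild type.

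Bmp4, a ligand, was highest in 2iL in the lines labelled ERF knockout. The 3 libraries labelled ERF knockout with RAS present read 7.40, 8.50 and 9.09 CPM, and those with RAS deleted read 10.6, 9.41 and 11.3 CPM. In ERF wild-type cells in 2iL, Bmp4 read 1.86, 0.833 and 0.975 CPM with RAS present and 1.02, 1.37 and 1.06 CPM with RAS deleted. The 2iL ranges with and without the knockout label did not overlap. By edgeR, Bmp4 rose with the ERF knockout label in 2iL by 2.71 (SE 0.23, adjusted p = 1.38e-08) with RAS present and by 3.17 (SE 0.24, adjusted p = 9.26e-10) with RAS deleted. With an offset for effective length the first of these was 1.78 and kept its call.

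In FA, Bmp4 was low in every line. It read 1.76 and 1.80 CPM with ERF wild type and RAS present, and 0.394, 0.729 and 0.827 CPM with RAS deleted. In the libraries labelled ERF knockout it read 1.83, 2.22 and 1.75 CPM with RAS present and 1.64, 1.39 and 1.49 CPM with RAS deleted. The lowest group was thus ERF wild type with RAS deleted, and its range met no other. Bmp4 fell from 2iL to FA in both lines labelled ERF knockout, with changes of -2.10 (SE 0.22, edgeR adjusted p = 4.53e-08) with RAS present and -2.78 (SE 0.23, edgeR adjusted p = 4.75e-10) with RAS deleted. The change with ERF wild type was 0.49 (SE 0.28, edgeR adjusted p = 0.149) with RAS present and -0.80 (SE 0.29, edgeR adjusted p = 0.0281) with RAS deleted, neither of which reached the threshold of the test and the fold together. Without FA replicate 3 of the RAS-deleted cells the latter was -1.02.

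RAS deletion in FA lowered Bmp4 in ERF wild-type cells, with a change of -1.43 (SE 0.29, edgeR adjusted p = 0.000389). In FA with RAS deleted, Bmp4 was higher in libraries labelled ERF knockout by 1.19 (SE 0.27, edgeR adjusted p = 0.000977); without replicate 1 of ERF wild type the difference was 0.95 and under 2-fold.

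Bmp2, the other ligand among the members, was the lowest of the 10 in TPM. In FA with ERF wild type and RAS present it read 1.73 and 0.71 CPM, against 0.385, 0.476 and 0.418 CPM in 2iL. RAS deletion brought it to 0.307, 0.365 and 0.216 CPM in FA. The FA libraries with RAS present were above both of these groups without overlap, and replicate 1 was far above replicate 2. By edgeR, Bmp2 rose with FA in this line by 1.55 (SE 0.47, adjusted p = 0.00846) and fell with RAS deletion in FA (change -2.06, SE 0.48, adjusted p = 0.00133). Without replicate 1 of the FA libraries with ERF wild type and RAS present, these values were 0.73 and -1.24, and neither passed the test. The rise with FA was called with only the compared groups in the fit, and was 1.48 (edgeR adjusted p = 0.0672) when the replicate block, which fits same-numbered libraries as pairs, was added. Replicate 1 also stood apart on chromosome 8: its genes there had a median log2 deviation from the group mean of 0.14 in this FA group, where the other library mirrors it at -0.14. In the other ERF wild-type groups replicate 1 was at 0.22 (2iL, RAS present), 0.20 (2iL, RAS deleted) and 0.22 (FA, RAS deleted). In groups with the knockout label it was within 0.03 on chromosome 8, but stood higher on chromosome 11, at 0.11 and 0.06 in 2iL and 0.08 and 0.04 in FA (RAS present, then deleted). No member lies on chromosome 8 or 11, and the part of this in the values of Bmp2 and Id1 was not tested.

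In 2iL with RAS deleted, Bmp2 read 0.797, 0.672 and 1.08 CPM in libraries labelled ERF knockout and 0.376, 0.355 and 0.242 CPM in ERF wild type. The ranges did not overlap, and the rise was 1.37 (SE 0.50, edgeR adjusted p = 0.0317). It was 1.39 by DESeq2 with an adjusted p of 0.0518, and it also missed the threshold without replicate 1 or 3 of the libraries labelled ERF knockout (1.41 and 1.17) and without replicate 2 or 3 of ERF wild type (1.44 and 1.19). With RAS present the same difference was 1.10 (SE 0.45, edgeR adjusted p = 0.0751), and with only the compared groups in the fit it was called, at 1.11 (edgeR adjusted p = 0.0307), and not called once the replicate block was added to that fit. In FA with RAS deleted the ERF difference of Bmp2 was 1.06 (SE 0.48, edgeR adjusted p = 0.0769). It was called at 1.43 (edgeR adjusted p = 0.0198) without FA replicate 1 of the libraries with the knockout label and RAS deleted.

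Bmpr1a encodes a type I receptor kinase for BMPs. It read 50.3 to 62.3 CPM over the 12 libraries in 2iL and 70.3 to 94.6 CPM over the 11 in FA, so the media did not overlap. Its increase with FA was 0.60 (SE 0.07) with ERF wild type and RAS present, 0.34 (SE 0.06) with RAS deleted, 0.48 (SE 0.06) labelled ERF knockout with RAS present and 0.82 (SE 0.06) with RAS deleted. Each had an edgeR adjusted p under 0.05, and none reached 2-fold. In FA the order of group means was 93.5 CPM (labelled ERF knockout, RAS deleted), 88.3 CPM (ERF wild type, RAS present), 78.0 CPM (labelled ERF knockout, RAS present) and 76.1 CPM (ERF wild type, RAS deleted). Only the last 2 overlapped.

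Smad6, an inhibitory SMAD that BMP signalling itself induces, also read higher in FA. With RAS present and ERF wild type it read 12.2 and 14.8 CPM in FA and 7.04, 9.88 and 7.66 CPM in 2iL. In libraries labelled ERF knockout with RAS present it read 10.7, 11.6 and 9.72 CPM in FA and 4.61, 5.68 and 5.68 CPM in 2iL. With both RAS deleted and the knockout label it read 12.5, 11.5 and 10.2 CPM in FA and 5.41, 6.16 and 5.26 CPM in 2iL. FA lay above 2iL without overlap in all of these lines, and also with ERF wild type and RAS deleted (7.80 to 10.2 CPM in FA, 4.89 to 7.56 CPM in 2iL).

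Smad6 passed the fold threshold narrowly in the lines labelled ERF knockout, with a rise of 1.01 (SE 0.16, edgeR adjusted p = 2.03e-05) with RAS present and 1.02 (SE 0.16, edgeR adjusted p = 1.19e-05) with RAS deleted. With RAS present it was under 2-fold with a length offset (0.97), with only the compared groups (0.98, with or without the replicate block), and without replicate 1 in 2iL (0.90) or replicate 2 in FA (0.93). With RAS deleted it was under 2-fold with the length offset (0.90) and without replicate 3 in 2iL (0.98) or replicate 1 in FA (0.94), and just under it without replicate 1 in 2iL (1.00). The change with ERF wild type was 0.73 (SE 0.17, edgeR adjusted p = 0.00113) with RAS present and 0.51 (SE 0.16, edgeR adjusted p = 0.0128) with RAS deleted.

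**Figure D2:**
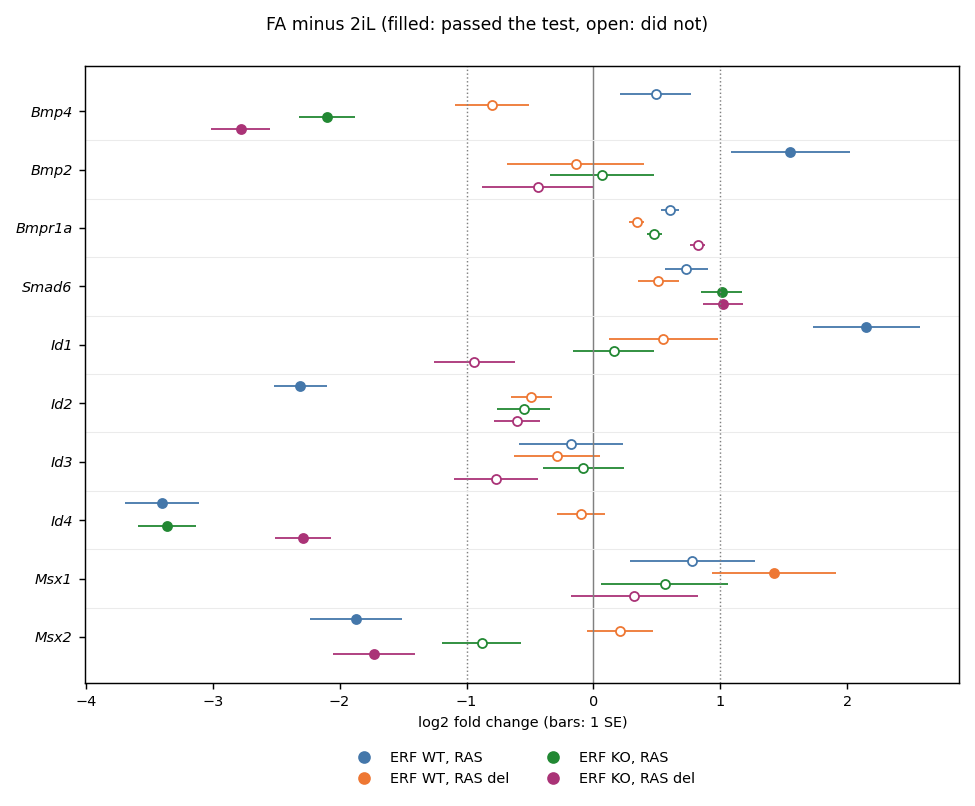
Log2 fold change from 2iL to FA (horizontal axis, bars 1 SE) of the 10 genes in the 4 lines, with dotted lines at 2-fold and filled points where the test was passed. Id4 fell in 3 lines and stood at -0.10 with ERF wild type and RAS deleted, and Bmp4 fell in the lines labelled ERF knockout.

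Id1 and Id2 ran against each other in 2iL. In 2iL with ERF wild type Id1 read 0.49, 0.119 and 0.325 CPM with RAS present and 0.323, 0.355 and 0.436 CPM with RAS deleted. In 2iL libraries labelled ERF knockout it read 1.59, 1.73 and 1.63 CPM, and 1.88, 2.30 and 2.49 CPM with RAS deleted as well. Every library labelled ERF knockout in 2iL lay above every ERF wild-type library in 2iL. The rise with the label was 2.28 (SE 0.39, edgeR adjusted p = 0.000124) with RAS present and 2.56 (SE 0.39, edgeR adjusted p = 1.71e-05) with RAS deleted.

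In FA, Id1 read 2.05 and 0.90 CPM with ERF wild type and RAS present and 0.307, 0.486 and 0.827 CPM with RAS deleted. In FA libraries labelled ERF knockout it read 2.2, 1.43 and 1.87 CPM, and 1.32, 1.27 and 0.87 CPM with RAS deleted. The RAS-deleted, ERF wild-type group lay below the other FA groups. Id1 rose with FA in ERF wild-type cells with RAS present by 2.15 (SE 0.42, edgeR adjusted p = 0.000162), and by 1.39 without replicate 1 in FA, where the call was kept. It fell with RAS deletion in FA, at -1.44 (SE 0.39, edgeR adjusted p = 0.00422), but without replicate 1 of the RAS-present libraries the value was -0.69 and with only the compared groups in the fit it was -1.43 with an adjusted p of 0.0684, while it was called again once the replicate block was added. In FA with RAS deleted it was higher in libraries labelled ERF knockout by 1.07 (SE 0.36, edgeR adjusted p = 0.0195), and this call was lost with only the compared groups in the fit (1.05, edgeR adjusted p = 0.0521, and 1.09, adjusted p = 0.0804, with the replicate block added), without replicate 1 (0.95) or 2 (1.01) of that group and without replicate 1 (0.80) or 2 (0.99) of ERF wild type. With the knockout label and RAS deleted, Id1 changed from 2iL to FA by -0.94 (SE 0.32, edgeR adjusted p = 0.0175), just under 2-fold, and by -1.01 to -1.07 without replicate 1 in 2iL or replicate 1 or 2 in FA.

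Id2 was highest in 2iL with ERF wild type, at 8.89, 11.5 and 9.29 CPM with RAS present and 8.98, 9.69 and 8.86 CPM with RAS deleted. In 2iL libraries labelled ERF knockout it read 2.16, 1.73 and 2.26 CPM with RAS present and 4.38, 3.98 and 3.91 CPM with RAS deleted. The knockout label thus went with lower Id2 without overlap, at -2.26 (SE 0.18, edgeR adjusted p = 6.13e-09) with RAS present and -1.16 (SE 0.17, edgeR adjusted p = 1.27e-05) with RAS deleted. In 2iL cells with the knockout label, RAS deletion moved Id2 by 0.99 (SE 0.19, edgeR adjusted p = 0.0124), just under 2-fold. It was 1.02 to 1.06, past the threshold, without replicate 1 or 3 of the RAS-present libraries or replicate 3 of the RAS-deleted ones.

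In FA, Id2 read 2.19 and 1.75 CPM with ERF wild type and RAS present, and 4.91, 7.09 and 7.55 CPM with RAS deleted. It read 1.51, 1.39 and 1.32 CPM in FA libraries labelled ERF knockout with RAS present and 2.80, 3.14 and 2.16 CPM with RAS deleted. The RAS-deleted, ERF wild-type group lay above the other FA groups. Id2 fell from 2iL to FA with ERF wild type and RAS present, at -2.31 (SE 0.21, edgeR adjusted p = 3.51e-09). The change was -0.49 to -0.60 in the other lines, each with an edgeR adjusted p under 0.05 and under 2-fold. In FA, RAS deletion raised Id2 in ERF wild-type cells by 1.71 (SE 0.21, edgeR adjusted p = 5.57e-07), and with RAS deleted the knockout label went with a change of -1.27 (SE 0.17, edgeR adjusted p = 2.71e-06). With the knockout label, RAS deletion in FA moved Id2 by 0.94 (SE 0.20, edgeR adjusted p = 0.00112), and by 1.07 without replicate 3 of the RAS-deleted libraries.

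Id3 varied least among the Id genes. Its group means ran from 1.16 CPM (ERF wild type, RAS present, FA) to 3.20 CPM (labelled ERF knockout, RAS deleted, 2iL). Of the 7 neighbouring steps in that order, all but the one between the highest group and the next (2.72 CPM) overlapped. In 2iL with RAS present it read 2.79, 2.65 and 2.73 CPM with the knockout label and 0.84, 1.43 and 1.81 CPM without it, a rise of 1.02 (SE 0.35, edgeR adjusted p = 0.0301). That call was lost with an offset for effective length (0.78), without any 1 of the libraries labelled ERF knockout (1.02 to 1.04), and without ERF wild-type replicate 1 (0.75) or 2 (1.07).

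Id4 had the largest change with medium among the members. In 2iL it read 3.78, 5.77 and 4.23 CPM with ERF wild type and RAS present, 4.36, 5.38 and 5.81 CPM with RAS deleted, 5.14, 5.85 and 6.15 CPM labelled ERF knockout, and 4.15, 5.77 and 5.12 CPM labelled ERF knockout with RAS deleted. These 2iL groups overlapped. In FA it read 0.504 and 0.331 CPM with ERF wild type and RAS present but 4.73, 5.03 and 4.78 CPM with RAS deleted. In FA libraries labelled ERF knockout it read 0.448, 0.695 and 0.518 CPM with RAS present and 0.966, 1.27 and 0.829 CPM with RAS deleted. The RAS-deleted FA libraries with ERF wild type were thus within the range of 2iL, and all other FA libraries were below it.

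Id4 fell with FA, at -3.40 (SE 0.29, edgeR adjusted p = 1.08e-09) with ERF wild type and RAS present. It also fell in lines labelled ERF knockout, at -3.36 (SE 0.23, edgeR adjusted p = 5.45e-11) with RAS present and -2.29 (SE 0.22, edgeR adjusted p = 4.96e-09) with RAS deleted. With ERF wild type and RAS deleted the change was -0.10 (SE 0.19, edgeR adjusted p = 0.710). In FA, RAS deletion raised Id4 in ERF wild-type cells by 3.49 (SE 0.28, edgeR adjusted p = 1.23e-09), an 11.2-fold difference. The same contrast in libraries labelled ERF knockout was 0.88 (SE 0.26, edgeR adjusted p = 0.0165), under 2-fold, and 1.05 without FA replicate 2 of the RAS-present libraries.

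Msx2, a homeobox gene and BMP target, followed Id4 in FA. In FA and with ERF wild type it read 0.324 and 0.663 CPM with RAS present and 3.24, 2.43 and 3.49 CPM with RAS deleted. In FA libraries labelled ERF knockout it read 0.897, 0.391 and 0.717 CPM, and 0.515, 0.367 and 0.58 CPM with RAS deleted. The ERF wild-type, RAS-deleted group alone was high in FA. In 2iL it read 1.51, 1.96 and 1.86 CPM with ERF wild type and RAS present and 3.17, 2.49 and 2.27 CPM with RAS deleted. In 2iL libraries labelled ERF knockout it read 1.06, 1.19 and 1.47 CPM, and 2.11, 1.23 and 1.55 CPM with RAS deleted.

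By edgeR, Msx2 fell with FA, at -1.87 (SE 0.36, adjusted p = 0.000165) with ERF wild type and RAS present and -1.73 (SE 0.32, adjusted p = 7.33e-05) with RAS deleted and the knockout label. With the label and RAS present it changed by -0.88 (SE 0.31, edgeR adjusted p = 0.0251), and by -1.14 without FA replicate 1. RAS deletion in FA raised it by 2.66 (SE 0.35, edgeR adjusted p = 2.18e-06) in ERF wild-type cells, and in RAS-deleted FA libraries the knockout label went with a change of -2.63 (SE 0.30, edgeR adjusted p = 1.97e-07). With the knockout label the RAS difference in FA was -0.45 (SE 0.34, edgeR adjusted p = 0.344).

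Msx1, the related homeobox gene, was low and uneven within groups. With ERF wild type and RAS deleted it read 0.833, 0.892 and 1.94 CPM in FA and 0.323, 0.659 and 0.387 CPM in 2iL, a rise of 1.42 (SE 0.49, edgeR adjusted p = 0.0228). The call was lost without replicate 3 in FA (0.91) and without replicate 1 (1.23) or 3 (1.31) in 2iL. All of the other 11 single-factor comparisons of Msx1 lacked a call, though without 2iL replicate 1 its change with FA in ERF wild-type cells with RAS present went from 0.78 to 1.55 and was called (edgeR adjusted p = 0.025), and in the order of its group means every neighbouring pair overlapped.

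**Figure D3:**
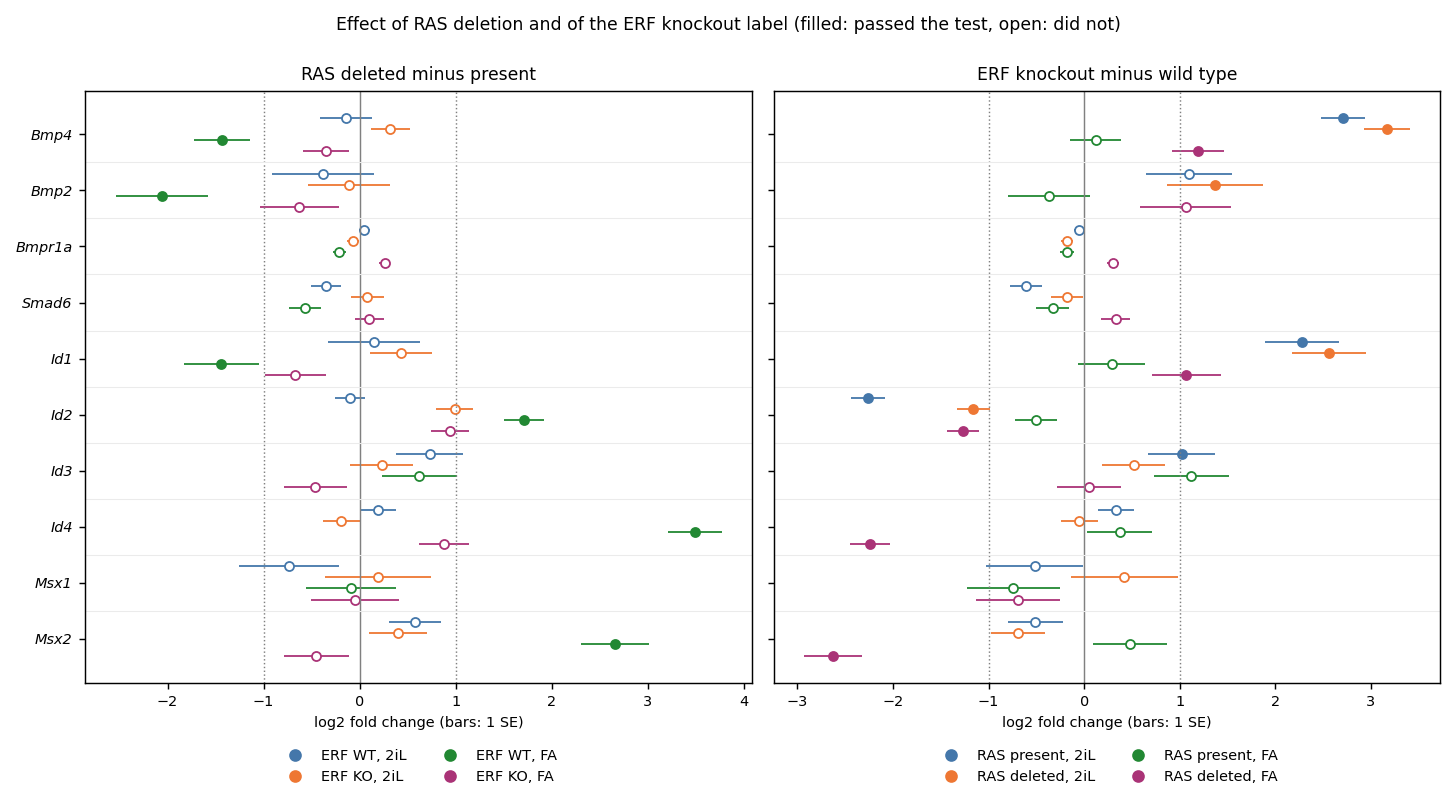
Log2 fold changes (horizontal axes, bars 1 SE) of the 10 genes for RAS deletion (left) and for the ERF knockout label (right) in each background, with dotted lines at 2-fold and filled points where the test was passed. For RAS deletion, filled points occur only in FA with ERF wild type, where Id4, Msx2 and Id2 rose and Bmp2, Id1 and Bmp4 fell.

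Counted over the 10 genes, FA raised 2 (Id1 and Bmp2) and lowered 3 (Id2, Id4 and Msx2) with ERF wild type and RAS present, where 13.2% of all genes tested rose and 10.8% fell. The median change of the members was 0.55, against 0.03 over all genes. With RAS deleted, FA raised Msx1 and lowered no member, where 9.96% of genes rose and 6.59% fell, with medians of 0.06 and 0.01. In libraries labelled ERF knockout with RAS present, 1 member rose (Smad6) and 2 fell (Id4 and Bmp4), where 12.3% rose and 7.46% fell, with medians of -0.01 and 0.02. With RAS deleted and the knockout label, 1 rose (Smad6) and 3 fell (Id4, Bmp4 and Msx2), where 14.5% rose and 10.4% fell, with medians of -0.68 and 0.03.

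RAS deletion called no member in 2iL by edgeR or DESeq2. With ERF wild type 3 of the 10 had an unadjusted p under 0.05, and 1.2% of all genes were called in either direction. With the knockout label 1 of the 10 had an unadjusted p under 0.05, and 0.211% of genes were called. The member medians were -0.03 and 0.21, and those of all genes 0.00. In FA with ERF wild type, RAS deletion raised 3 members (Id2, Id4 and Msx2) and lowered 3 (Id1, Bmp4 and Bmp2), where 8.93% of genes rose and 8.33% fell. The median was -0.15 for the members and 0.00 over all genes. In FA with the knockout label no member was called by edgeR or DESeq2, 4 had an unadjusted p under 0.05, and 6.88% of genes were called in either direction, with medians of -0.20 and 0.00.

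With the ERF knockout label in 2iL and RAS present, 3 members rose (Id1, Bmp4 and Id3) and 1 fell (Id2), where 5.2% of genes rose and 4.52% fell. With RAS deleted in 2iL, 3 rose (Id1, Bmp4 and Bmp2) and 1 fell (Id2), where 5.83% rose and 7.15% fell. The member medians were 0.14 and 0.18, and those of all genes -0.00 and -0.01. In FA with RAS present edgeR called none, 3 had an unadjusted p under 0.05, DESeq2 called 1 (Id3), and 2.36% of genes were called, with medians of -0.03 and -0.00. In FA with RAS deleted, 2 rose (Id1 and Bmp4) and 3 fell (Id2, Id4 and Msx2), where 8.13% rose and 8.48% fell, with medians of 0.17 and 0.01.

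Interactions were tested as differences between fold changes. The RAS effect in FA differed with the ERF label for Id4 by -2.61 (SE 0.40, edgeR adjusted p = 3.17e-05), for Msx2 by -3.11 (SE 0.49, edgeR adjusted p = 4.56e-05) and for Bmp4 by 1.07 (SE 0.38, edgeR adjusted p = 0.0369). That is 3 of 10 members, where 13.7% of all genes were called. In 2iL the RAS effect differed with the ERF label for Id2 alone among the members, by 1.10 (SE 0.25, edgeR adjusted p = 0.0283), where 0.378% of genes were called. The medium effect with RAS present differed with the ERF label for Bmp4 by -2.59 (SE 0.35, edgeR adjusted p = 4.60e-05), Id1 by -1.99 (SE 0.53, edgeR adjusted p = 0.0182) and Id2 by 1.76 (SE 0.29, edgeR adjusted p = 0.000371), where 4.27% of genes were called. The medium effect with ERF wild type differed with RAS for 4 members, where 11.9% of genes were called: Id4 by 3.30 (SE 0.34), Msx2 by 2.08 (SE 0.45), Id2 by 1.82 (SE 0.26) and Bmp4 by -1.29 (SE 0.40), with edgeR adjusted p of 1.66e-07, 0.00126, 1.49e-05 and 0.02.

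Some of these differences missed the threshold under other settings. Bmp4 lost all 3 of its calls with an offset for effective length (1.28, -1.37 and -0.59 in the order above). With only the compared groups in the fit, the RAS by ERF difference of Bmp4 in FA was 1.04 (adjusted p = 0.0669, edgeR) and its medium by RAS difference was -1.29 (adjusted p = 0.108, edgeR). With the replicate block added to that fit they were 1.08 (adjusted p = 0.0866, edgeR) and -1.27 (adjusted p = 0.14, edgeR). The former call was also lost without either FA library of ERF wild type with RAS present (1.07 and 1.03), FA replicate 1 with RAS deleted (0.83), replicate 1 or 3 with the knockout label (1.04 and 1.01) or replicate 1 or 3 with both (0.99 and 1.08). The latter was lost without 2iL replicate 2 (-1.15) or FA replicate 1 (-1.05) of the RAS-deleted cells. The Id2 difference in 2iL was 1.11 with the length offset (adjusted p = 0.0573, edgeR) and ran from 0.98 to 1.14 without each of 8 libraries that ended the call. These were replicates 1 and 2 with the knockout label, 1, 2 and 3 with the label and RAS deleted, 2 and 3 with RAS deleted alone, and 2 of ERF wild type with RAS present. Msx2 kept its call in FA and was -3.70 without FA replicate 2 of ERF wild type with RAS present. The medium by ERF call of Id1 was lost without FA replicate 1 of ERF wild type with RAS present (-1.24, edgeR adjusted p = 0.245) and without 2iL replicate 2 of that line (-1.68, edgeR adjusted p = 0.0513). Leaving out single libraries also added calls. The medium by ERF difference of Bmp2 was -1.48 (edgeR adjusted p = 0.15) and was called at -2.08 without FA replicate 3 with the knockout label and RAS present. For Id3 the RAS by ERF difference in FA was -1.07 (edgeR adjusted p = 0.124) and was called at -1.35 without FA replicate 1 of ERF wild type with RAS deleted. The medium by RAS difference of Bmp2 was -1.68, and -2.15 without FA replicate 2 of ERF wild type with RAS present. The RAS by ERF difference of Bmp2 in FA was 1.43 (edgeR adjusted p = 0.0994) and was called at 1.79 to 2.03 without each of 3 libraries. The medium by RAS difference of Id1 was -1.59 (edgeR adjusted p = 0.0637) and was called at -2.03 to -2.11 without each of 3 libraries.

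Markers of other states moved with these groups. The 8 naive pluripotency markers summed to 216 to 248 CPM in FA with ERF wild type and RAS present and to 1180 to 1985 CPM in FA with RAS deleted, against 3018 to 3398 CPM in 2iL with RAS present. In FA libraries labelled ERF knockout they summed to 204 to 294 CPM with RAS present and 291 to 322 CPM with RAS deleted. The FA group in which Id2, Id4 and Msx2 stayed high was thus also the FA group with the highest naive markers. The 7 primed pluripotency markers, which rise as cells leave the naive state, summed to 287 to 553 CPM in that group, against 878 to 886 CPM in FA with ERF wild type and RAS present and 586 to 758 CPM in the FA libraries labelled ERF knockout. Not all of them were lower in that group than in FA with ERF wild type and RAS present. Fgf5, Pou3f1, Dnmt3a, Dnmt3b and Sox3 averaged lower. Otx2 averaged higher, at 52.1 against 25.7 CPM without overlap, and so did Fgf15, at 21.5 against 11 CPM with overlap. The part of cell state in the values of Id2, Id4 and Msx2 was not tested.

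The 7 primitive endoderm markers, among them Gata6, Sox7 and Dab2, summed to 105 to 176 CPM in FA with ERF wild type and RAS present and 104 to 106 CPM with the knockout label. With RAS deleted in FA they summed to 15.3 to 19.2 CPM in ERF wild type and 22.8 to 33.4 CPM with the knockout label, and in 2iL with ERF wild type and RAS present to 14 to 21.6 CPM. No marker of this list was at 0 in any group. In 2iL libraries labelled ERF knockout they summed to 27.9 to 69.5 CPM with RAS present and 19.2 to 27.8 CPM with RAS deleted. The latter was the 2iL group in which Bmp4 and Id1 read highest. With ERF wild type, Id1 and Bmp2 in FA were higher where these markers were higher, and the part of such cells in their values was not tested.

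Some of the 7 trophoblast markers moved in the 2iL libraries labelled ERF knockout, where Bmp4 and Id1 were high. With RAS present 2 rose (Krt8 and Krt18) and 1 fell (Gata3), where 5.2% of all genes rose and 4.52% fell, and the median change was 0.07. With RAS deleted 2 rose (Krt8 and Krt18) and 2 fell (Gata3 and Cdx2), where 5.83% rose and 7.15% fell, and the median was 0.05. The list summed to 27.4 to 52.2 CPM with RAS present and 28.5 to 40.2 CPM with RAS deleted, against 18.1 to 25.9 CPM and 20.4 to 22.6 CPM in ERF wild type. The keratin gene Krt8 averaged 15 and 13.7 CPM with the label and 2.15 and 2.89 CPM without it, and Krt18 averaged 13 and 8.6 CPM against 3.52 and 2.35 CPM. The transcription factor gene Gata3 averaged 0.149 and 0.102 CPM with the label against 5.04 and 3.29 CPM, and Cdx2 0.0897 and 0.075 CPM against 0.168 and 1.37 CPM. Elf5, Eomes and Ascl2 were not called, at group means of 0.504 to 0.59, 6.38 to 8.07 and 2.96 to 4.15 CPM in 2iL. No marker of this list was at 0 in every library of a group. The 5 fibroblast markers summed to 4.78 to 7.22 CPM in 2iL libraries with the label and 3.93 to 5.54 CPM in those without it. Among them Acta2 was at 0 in all 2iL libraries with ERF wild type, and with the label read 0.288 to 2.1 CPM with RAS present and 0 to 0.876 CPM with RAS deleted. Postn was at 0 in 2iL except in the group labelled ERF knockout with RAS present. Thy1 averaged 3.38 and 3.78 CPM with the label against 1.48 and 1.41 CPM (RAS present, then deleted). Col1a1 went the other way, at 1.34 and 1.67 CPM with the label against 2.83 and 3.4 CPM. Col1a2 averaged at most 0.208 CPM in 2iL. The 6 mesoderm markers summed to 2.08 to 4.87 CPM over all 2iL libraries, and the 5 neural markers to 27.5 to 38.3 CPM with the label and 36.9 to 73.9 CPM with ERF wild type. The part of such cells in the values of Bmp4 and Id1 was not tested.

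**Figure D4:**
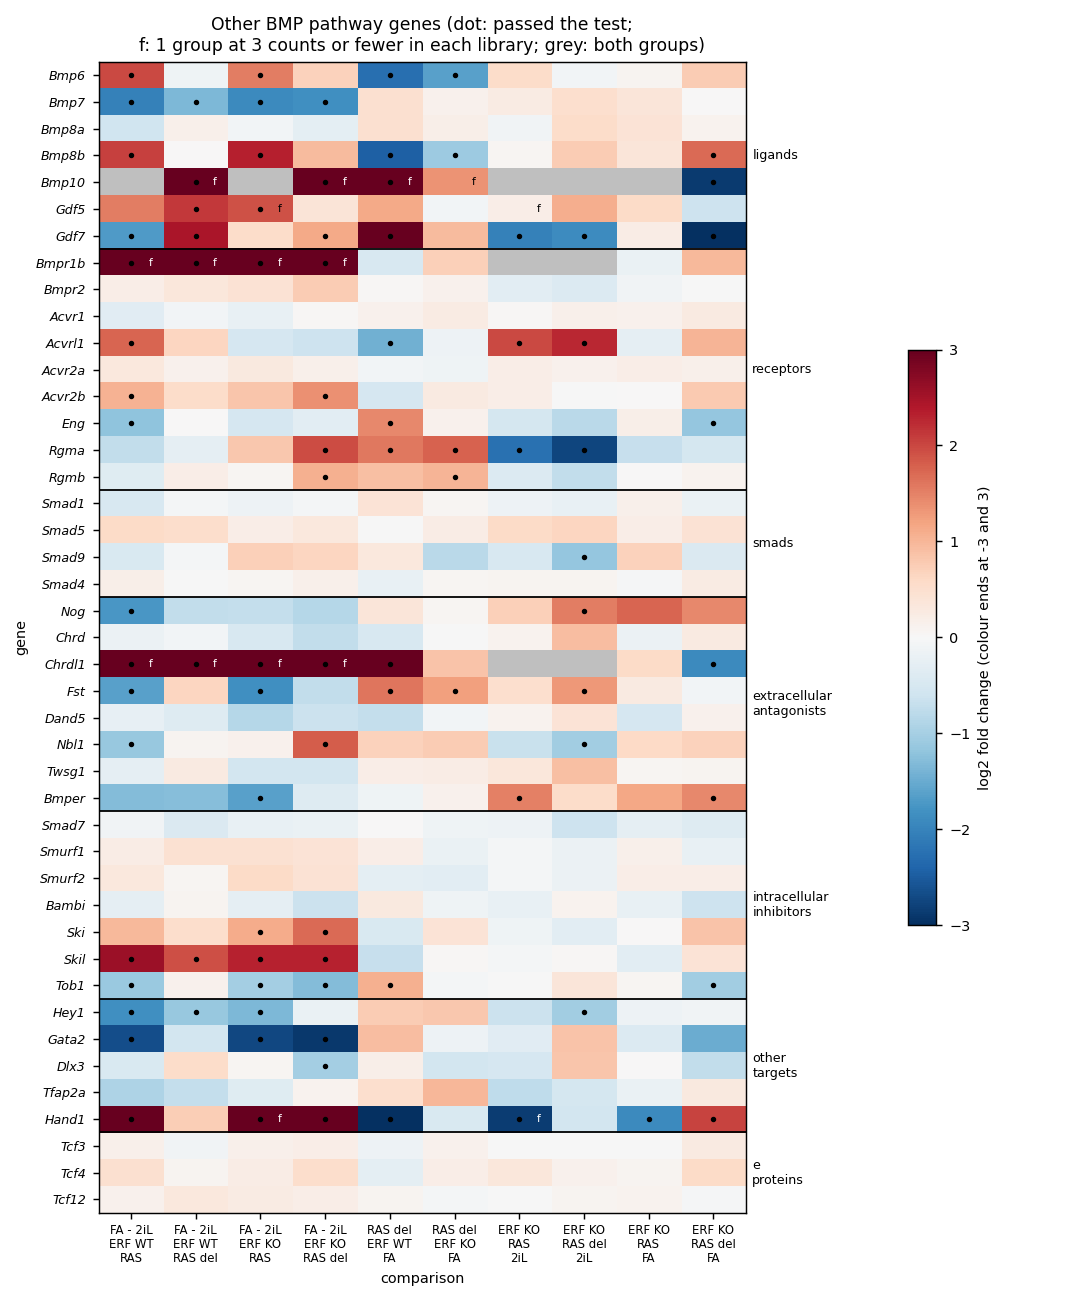
Log2 fold changes (colour, ending at -3 and 3) of the other BMP pathway genes that passed the filter (rows, by role) in 10 comparisons (columns), with a dot where the test was passed, f where 1 group had at most 3 counts in each library and grey where both had. Skil is red in all 4 columns of FA against 2iL, and the E proteins Tcf3, Tcf4 and Tcf12 carry no dot.

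Beyond the members, 56 genes of the BMP pathway were listed by role, of which 43 passed the filter. FA raised 8 of these and lowered 9 with ERF wild type and RAS present, where 13.2% of all genes rose and 10.8% fell, with a median change of -0.18 against 0.03 over all genes. With ERF wild type and RAS deleted it raised 6 and lowered 2 (9.96% and 6.59% of all genes, median 0.08). In lines labelled ERF knockout it raised 8 and lowered 6 with RAS present (12.3% and 7.46%, median 0.14), and raised 11 and lowered 4 with RAS deleted (14.5% and 10.4%, median 0.20). RAS deletion in FA raised 7 and lowered 4 with ERF wild type, where 8.93% of all genes rose and 8.33% fell (median 0.18, all genes 0.00). It raised 3 and lowered 2 with the knockout label, where 6.88% of all genes were called in either direction (median 0.12, all genes 0.00). The ERF label in 2iL went with 2 higher and 3 lower with RAS present, where 5.2% of all genes were higher and 4.52% lower (median -0.01, all genes -0.00). With RAS deleted it went with 3 higher and 5 lower, where 5.83% were higher and 7.15% lower (median 0.09, all genes -0.01).

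Of 12 other ligand genes, 7 passed the filter. FA raised 2 and lowered 2 of them with ERF wild type and RAS present, where 13.2% of all genes rose and 10.8% fell, and in the other lines it raised 2 to 3 and lowered 1, where 9.96% to 14.5% of all genes rose and 6.59% to 10.4% fell. The genes called with ERF wild type and RAS present included Bmp8b at 2.05 (SE 0.27, edgeR adjusted p = 1.38e-06) and Bmp7 at -2.02 (SE 0.21, edgeR adjusted p = 6.03e-08). Bmp7 stood at 21.3 to 31.6 CPM in 2iL and 5.14 to 8.19 CPM in FA in that line. RAS deletion in FA with ERF wild type raised 2 and lowered 2, against 8.93% and 8.33% of all genes. Gdf7, a ligand of the growth and differentiation factor branch, read 9.42 to 14.5 CPM with RAS deleted and 0.426 to 0.684 CPM with RAS present, a rise of 4.36 (SE 0.32, edgeR adjusted p = 3.03e-10). In FA and without RAS it was lower with the knockout label, at -3.20 (SE 0.24, edgeR adjusted p = 4.16e-10). Gdf7 was thus high in the same FA group as Id4 and Msx2.

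Of 10 other receptor and co-receptor genes, 9 passed the filter and FA raised 3 and lowered 1 with ERF wild type and RAS present, against the same 13.2% and 10.8% of all genes. In the other lines it raised 1 to 4 receptor genes and lowered none, against 9.96% to 14.5% and 6.59% to 10.4% of all genes. Bmpr1b, the other BMP-specific type I receptor gene, was at or under 3 counts in each 2iL library of this line and was at least 6.29-fold higher in FA, against a floor of 3 counts per library. The co-receptor gene Rgma was lower with the ERF knockout label in 2iL, at -2.25 (SE 0.28, edgeR adjusted p = 4.41e-06) with RAS present and -2.75 (SE 0.26, edgeR adjusted p = 8.66e-08) with RAS deleted. RAS deletion in FA raised Rgma by 1.59 (SE 0.27, edgeR adjusted p = 9.10e-05) with ERF wild type and 1.76 (SE 0.25, edgeR adjusted p = 4.08e-05) with the knockout label. In 2iL it also raised Rgma with ERF wild type, by 1.12 (SE 0.23, edgeR adjusted p = 0.00831), where 1.2% of all genes were called. With the knockout label in 2iL, Rgma averaged 3.22 CPM with RAS deleted and 2.12 CPM with RAS present, without a call.

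Of the 4 signalling SMAD genes, none was called for medium in any line or for RAS deletion in either medium by edgeR. For medium, 6.59% to 14.5% of all genes were called in each direction, so none of 4 is near the background, and 1 to 3 of them had an unadjusted p under 0.05. For RAS deletion in 2iL, 1.2% (ERF wild type) and 0.211% (knockout label) of all genes were called, and no SMAD gene had an unadjusted p under 0.05. In FA 8.93% rose and 8.33% fell with ERF wild type and 6.88% were called with the knockout label, and 2 of the 4 had an unadjusted p under 0.05 in each. Among all 12 single-factor comparisons the list had 1 call, a fall of Smad9 with the ERF knockout label in 2iL with RAS deleted (-1.16, SE 0.35, edgeR adjusted p = 0.0116), where 7.15% of all genes fell. Of 13 extracellular antagonist genes, 8 passed the filter, and FA raised 1 and lowered 3 with ERF wild type and RAS present, again against 13.2% and 10.8%. In the other lines it raised 1 and lowered 0 (ERF wild type, RAS deleted, where 9.96% and 6.59% of all genes rose and fell), raised 1 and lowered 2 (labelled ERF knockout, RAS present, 12.3% and 7.46%), and raised 2 and lowered 0 (labelled ERF knockout, RAS deleted, 14.5% and 10.4%). Fst, which encodes the activin and BMP antagonist follistatin, rose with RAS deletion in FA by 1.60 (SE 0.37, edgeR adjusted p = 0.00146) with ERF wild type and by 1.24 (SE 0.32, edgeR adjusted p = 0.00624) with the knockout label.

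All 7 intracellular inhibitor genes passed the filter. Skil, which encodes the SMAD corepressor SnoN, rose with FA in each line, from 52.3 to 62.8 CPM in 2iL to 322 to 367 CPM in FA with ERF wild type and RAS present (2.56, SE 0.16, edgeR adjusted p = 4.03e-11). Its rise was 1.93 (SE 0.15), 2.30 (SE 0.15) and 2.30 (SE 0.15) in the other lines. Of the 7 other target genes, 5 passed the filter. Hand1, which is also in the list of mesoderm markers, read 6.44 to 8.10 CPM in FA with ERF wild type and RAS present and 0.219 to 0.503 CPM with RAS deleted, a change of -4.39 (SE 0.43, edgeR adjusted p = 2.15e-08). The E protein genes Tcf3, Tcf4 and Tcf12, whose products Id proteins bind, had no call in any of the 16 comparisons by edgeR. For medium 1 to 3 of them had an unadjusted p under 0.05, and none of 3 is near the 6.59% to 14.5% of all genes called in each direction. For RAS deletion and the ERF label the shares of all genes, in either direction or in each, ran from 0.211% to 8.93%. For the interactions they ran from 0.378% to 13.7%, and none of 3 is near these shares too. The largest single-factor change of the E protein genes was 0.57, of Tcf4 with the knockout label in FA with RAS deleted.

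The genes whose log2(CPM + 1) followed 9 of the members most closely over the 23 libraries were taken from 12729 genes with a mean of at least 1 CPM. They were Jam2 for Id4 (Pearson r = 0.98), Pde9a for Bmp4 (0.97), Foxn2 for Id2 (0.95), Ak1 for Msx2 (0.94), Txnrd3 for Smad6 (0.93) and Crym for Id1 (0.92). The closest genes were less alike for Bmp2 (Scube2, 0.85), Id3 (Fundc1, 0.76) and Msx1 (Cngb1, 0.71). Among the members themselves, Bmpr1a and Smad6 were the most alike (0.83), followed by Id4 and Msx2 (0.78) and Id2 and Msx2 (0.77). Id4 ran against Bmpr1a (-0.80) and Smad6 (-0.79), and Id1 against Id2 (-0.77). These correlations are descriptions: the points share media, lines and library scaling.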

How the data were processed

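RNA-seq was done on 23 libraries (ribosomal RNA depleted, stranded). Per the submitters' processing notes, bcl2fastq 2.20.0, fastp 0.20.0 and Salmon were used with build mm10. The authors deposited Salmon's estimated counts per gene, with TPM and effective length, and a matrix of counts that equals the rounded estimated counts in every cell. The deposited TPM were used for levels between genes.

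Rounded counts were fitted in edgeR 4.0.16 (TMM, filterByExpr, robust quasi-likelihood test) with 1 coefficient per group over all 23 libraries, and p-values were Benjamini-Hochberg adjusted over 20372 genes. CPM use TMM-scaled library sizes. DESeq2 1.42.0, other scaling, no filter, a length offset, only the compared groups, the replicate block and leaving out each library were alternatives. The fit was tested on simulated data in 1 contrast, with 1 fixed spread and changes only in genes averaging over 1 CPM. It does not speak for Bmp2 or Msx1, which averaged less. The members and lists were chosen with earlier results of these data known. Named genes were all members, up to 2 called genes per pathway list and comparison with the largest fold change, the E proteins, and the genes of most similar pattern.

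Same-numbered libraries are not stated to share a culture. The main fit did not pair them, and its p-values are from unpaired tests. The rule for pairs was that every same-numbered pair of deviations correlated over 0.1. FA against 2iL met it in all lines but ERF wild type with RAS present (r of 0.162 to 0.373), and so did RAS deletion in 2iL (0.31 to 0.522). The replicate block was an alternative fit for every comparison, whether or not the rule was met. Gene positions and exons are from GENCODE M21 and promoters from RefSeq. The lox-flanked RAS gene is not used here.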

Additional observations from a re-analysis of the deposited data

Results flagged for a closer look

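Each result here is a difference between the effects of one factor in 2 backgrounds that passed edgeR's test of the difference itself. The RAS effect differed with the ERF label in 2iL for Id2 (1.10), and in FA for Id4 (-2.61), Bmp4 (1.07) and Msx2 (-3.11). The medium effect with RAS present differed with the ERF label for Id1 (-1.99), Id2 (1.76) and Bmp4 (-2.59). The medium effect with ERF wild type differed with RAS for Id2 (1.82), Id4 (3.30), Bmp4 (-1.29) and Msx2 (2.08). Values are on the log2 scale. The Id2 difference in 2iL, the Bmp4 differences and the Id1 difference lost their calls under some of the other settings, as given above.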

How the results depend on the processing

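No alternative reversed the direction of a call on a member, and no setting moved the median of all genes by more than 0.06 on the log2 scale. The 2 libraries in FA with ERF wild type and RAS present and the low counts of Id1, Bmp2, Msx1 and Msx2 limit these values. RLE scaling changed no member call, and leaving the most abundant gene out of the fit ended 1, Smad6 in FA with the knockout label and RAS present (1.00).

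Counts of members called moved as follows. With the ERF label in FA and RAS present, edgeR called 0, DESeq2 and the fit with no filter called 1, and leaving out single libraries gave 0 to 1. With the ERF label in FA and RAS deleted, leaving out libraries gave 3 to 5. For the RAS by ERF difference in 2iL the length offset gave 0, and leaving out libraries gave 0 to 1. Leaving out libraries also gave 0 to 1 for FA with ERF wild type and RAS deleted, and for RAS deletion with the knockout label in 2iL and in FA. It gave 2 to 4 for FA with the knockout label and RAS present, and 3 to 5 with RAS deleted. For the ERF label in 2iL it gave 3 to 4 with RAS present and with RAS deleted. The counts also moved in the other comparisons that hold the FA group of ERF wild type with RAS present, where leaving out 1 library leaves 1.

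Counts of all genes called moved too. RAS deletion in 2iL with ERF wild type called 244, 559 with no filter, and 70 to 305 leaving out libraries. With the knockout label it called 43, 85 by DESeq2, 23 with the length offset, 240 with no filter, 75 with only the compared groups, 207 with the replicate block, and 17 to 40 leaving out libraries. The ERF label in FA with RAS present called 480, 881 with no filter, 266 with only the compared groups, and 124 to 749 leaving out libraries. The RAS by ERF difference in 2iL called 77, 134 by DESeq2, 46 with the length offset, 457 with no filter, 154 with the replicate block, and 26 to 159 leaving out libraries. The medium by ERF difference called 870, and 577 to 1029 leaving out libraries. The causes were not tested.

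The replicate block was fitted to only the compared groups. Adding it to that fit ended 2 member calls: Bmp2 in FA with ERF wild type and RAS present (1.48), where the correlations did not meet the rule for pairs, and Bmp2 for the ERF label in 2iL with RAS present, which only the fit of the compared groups had called. It restored the Id1 call for RAS deletion in FA with ERF wild type (-1.43 without it). Other calls were already lost with only the compared groups and stayed lost with the block: Smad6 in FA with the knockout label and RAS present (0.98), Id1 for the ERF label in FA with RAS deleted (1.05, block 1.09), and Bmp4 in the RAS by ERF difference in FA (1.04, block 1.08) and the medium by RAS difference (-1.29, block -1.27). Replicate 1 of all 4 ERF wild-type groups shared a higher median on chromosome 8, and whether they share a culture was not tested.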
